A study of Homo sapiens with 8 samples.

Results

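The genes described here are 41 human genes of homologous recombination, the Fanconi anaemia pathway, the replication checkpoint and mismatch or uracil repair, taken by symbol from the 19158 genes of the deposited tables. All 41 symbols were found once, and all 41 passed the filter on low values, so none is left out. RNA was measured in A549, an established epithelial cell line from a human lung adenocarcinoma that is labelled wild type. There were 4 untreated libraries and 4 libraries of cells kept for 48 h in 1 µM dexamethasone, a synthetic glucocorticoid, each from its own well. Both groups carry the replicate numbers 1, 3, 4 and 5, and both grew in DMEM with glutamax and serum. As all wells are of 1 cell line, p-values measure the spread between wells and not between donors or lines.

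Homologous recombination mends broken chromosomes by copying the sister chromatid, which exists only after replication, so many of its genes are known to be transcribed mainly in cycling cells. Break ends are sensed and trimmed, BRCA1 and BRCA2 with their partners prepare the trimmed end for strand exchange, and the joined molecules are then dissolved or cut. The Fanconi pathway removes crosslinks at stalled forks: a core complex adds ubiquitin to the FANCI and FANCD2 pair, which then calls in nucleases. The ATR and CHEK1 kinases slow the cycle when forks stall, while ATM and CHEK2 respond to breaks, and mismatch repair corrects copying errors behind the fork.

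Values were read as FPKM (fragments scaled to transcript length and to library size), a unit taken from the values since the labels call them counts. They were scaled between libraries, and sets of 4 values are always given in the order of replicates 1, 3, 4 and 5. A gene is called at a limma adjusted p under 0.05, with p-values adjusted over all 12161 genes tested. Fold changes are on the log2(FPKM + 1) scale, which understates the change of low genes. Depth, estimated from the steps between low values, was 24670000 to 28530000 counted fragments per library, where the labels give 40000000 to 50000000 sequenced read pairs. The treatment check held in every library: FKBP5, a direct glucocorticoid target, was at 3.98 to 6.75 scaled FPKM in untreated and 94.1 to 164 in dexamethasone libraries. Of 6 epithelial markers 5 passed the filter, led by KRT8 and KRT18, and EPCAM reached at most 0.704 FPKM. Summed leukocyte, fibroblast and endothelial markers reached at most 3.21, 2.64 and 0.177 FPKM, with PTPRC, CD3E and COL1A2 at 0 in all libraries. The highest of these, CD14 and COL1A1, were called lower. Among those too low to be tested, DCN and KDR were higher in all dexamethasone libraries and CDH5 was lower. DCN was at 0 in untreated and at 0.172 to 0.382 scaled FPKM in dexamethasone libraries. Of the epithelial markers, CDH1 was called higher, KRT19 and CLDN4 lower, and KRT8 and KRT18 were not called. The part of these markers in the results was not tested. Both libraries numbered 5 stood apart from their groups in a way that followed the GC content of the transcript. Among the 20 members with less than the median GC content of 41.9%, untreated replicate 5 lay at a median log2 ratio of -1.35 to its 3 group mates, and dexamethasone replicate 5 at -0.497. In the other 21 members these medians were 0.0331 and 0.117. Results are therefore also given without both libraries.

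The repair genes, a list chosen with earlier results of these data known, fell more often than they rose. Of the 41 members, 19 were called lower after dexamethasone (46.3%), where 14.3% of all genes tested were called lower. RAD50 was the 1 member called higher, where 12.4% of all genes were. The median log2 fold change of the members was -0.54, beside 0.01 over all genes tested, and 34 of the 41 had a negative value. The values of the 2 groups did not overlap, with all dexamethasone libraries lower, in 20 members (48.8%, against 17% of all genes), and with all of them higher in 2 (4.88%, against 14.5%). Without both libraries numbered 5, 23 members were called lower (background 22.9%) and 5 higher (background 22.2%), and all 19 were among the 23. With the GC trend of each library removed, 29 were called lower (background 18.8%) and 2 higher (background 18.4%), again with all 19 included. This removal also takes out any GC trend that differs between the 2 groups, so it corrects more than the libraries numbered 5. Beyond the 19, the lower calls gained without both libraries numbered 5 were BRCA1, BARD1, BRIP1 and PARP1. Of the 19, 15 were also called without any 1 of the 8 libraries. The exceptions were XRCC2, CLSPN, MSH6 and POLQ.

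**Figure D1:**
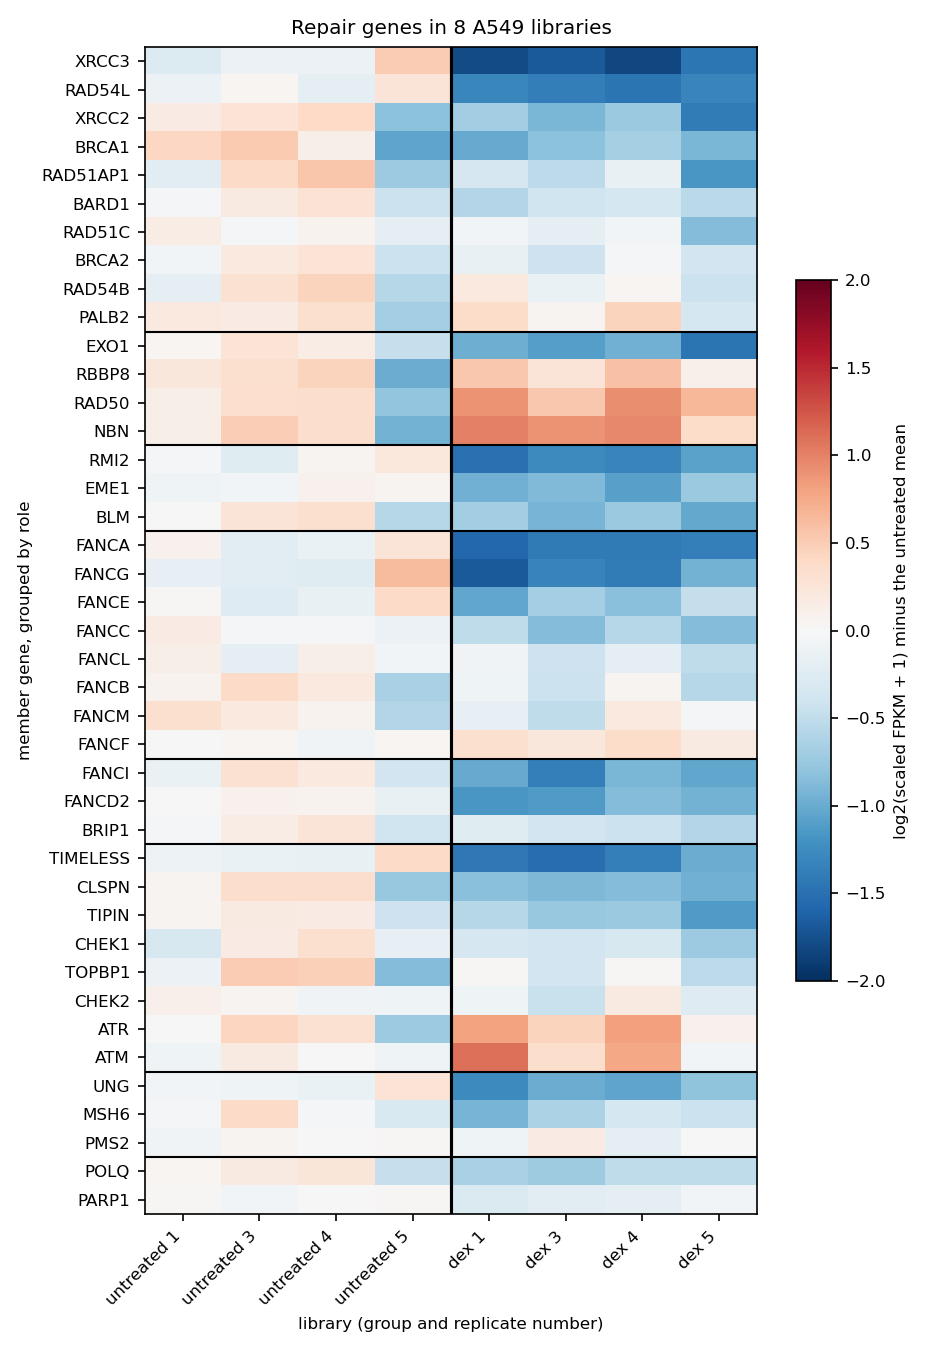
Each cell is the log2(scaled FPKM + 1) of a member gene (vertical axis, grouped by role with black lines between roles) in a library (horizontal axis) minus the mean of the 4 untreated libraries. Most rows turn blue in the dexamethasone libraries. RAD50, NBN, ATM and ATR turn red in most of these libraries, and RBBP8 and FANCF a paler red. Untreated replicate 5 is pale blue or blue in many rows where the other untreated libraries are not.

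The fall came with lower levels of general proliferation genes. Of 8 proliferation markers 4 were called lower (CCNB1, PCNA, MCM2 and E2F1), and MKI67, TOP2A, CDK1 and CCNE2 were not called. Summed over the 8, their level was 446 to 508 scaled FPKM in untreated and 205 to 247 in dexamethasone libraries, without overlap. PCNA and CCNB1 had the largest untreated means in this sum, 191 and 102 scaled FPKM. The 4 markers not called each overlapped between groups, but MKI67, TOP2A and CCNE2 did so only through untreated replicate 5. MKI67 was at 26.4, 33.9, 28.4 and 14.8 scaled FPKM in untreated and at 14.7, 15.0, 16.7 and 14.9 in dexamethasone libraries. All 8 markers had a negative log2 fold change. The part of this difference in the values of the repair genes was not tested. In bulk RNA, fewer cycling cells and less RNA per cell cannot be told apart.

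Mediators of recombination had 3 of 10 members called lower and 0 higher by limma (5 and 0 at an unadjusted p under 0.05), with a median log2 fold change of -0.51. For this and the other roles below, 14.3% of all genes were called lower and 12.4% higher. The share of all genes at an unadjusted p under 0.05 is not given, and differences between roles were not tested. RAD54L (ENSG00000085999, chromosome 1, 46247688 to 46278473, plus strand), a motor protein that drives strand exchange, measured 4.7, 5.34, 4.43 and 6.37 scaled FPKM in untreated libraries and 1.49, 1.37, 1.25 and 1.47 in dexamethasone libraries. Every dexamethasone library lay below every untreated one, and the mean was 3.74 times lower (log2 fold change -1.37 with SE 0.127, limma adjusted p = 5.02e-05). XRCC3 (ENSG00000126215, chromosome 14, 103697609 to 103715504, minus strand), which works in a pair with RAD51C, had untreated values of 17.2, 19.3, 19.4 and 30.5 and dexamethasone values of 5.41, 5.91, 5.26 and 7.08 scaled FPKM. Untreated replicate 5 was the highest of its group here, and the groups did not overlap (log2 fold change -1.68 with SE 0.184, limma adjusted p = 0.000164). XRCC2, which acts in strand exchange, was at 4.17 ± 1.64 and 1.62 ± 0.532 scaled FPKM (SD, n = 4 each) and was also called lower (log2 fold change -0.94 with SE 0.273, limma adjusted p = 0.0307). That call was lost without any 1 library other than untreated replicate 5, at log2 fold changes of -1.02 to -0.785 and adjusted p of 0.0503 to 0.0777.

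BRCA1 and its partners did not pass the test with all 8 libraries, while BRCA1, BARD1 and BRCA2 were called lower once the GC trend was removed, at -1.07 (limma adjusted p = 0.00475), -0.81 (limma adjusted p = 0.000696) and -0.62 (limma adjusted p = 0.00115). BRCA1 (ENSG00000012048, chromosome 17, 43044295 to 43323821, minus strand), the ubiquitin ligase that promotes resection and recruits PALB2, was at 23.3, 25, 18.6 and 7.79 scaled FPKM in untreated and at 8.02, 9.3, 10.5 and 8.63 in dexamethasone libraries. Untreated replicate 5 lay below all 4 dexamethasone libraries, while the other 3 untreated libraries lay above them (log2 fold change -0.85 with SE 0.309, limma adjusted p = 0.0692). Without untreated replicate 5 its log2 fold change was -1.20 (limma adjusted p = 0.000155), and without both libraries numbered 5 it was -1.19 (limma adjusted p = 0.000389). BARD1, the obligate partner of BRCA1, was at 4.14 ± 1.05 and 2.67 ± 0.28 scaled FPKM (SD, n = 4 each; log2 fold change -0.47 with SE 0.164, limma adjusted p = 0.0622), and without untreated replicate 5 its log2 fold change was -0.61 (limma adjusted p = 0.00388). BRCA2 (ENSG00000139618, chromosome 13, 32315474 to 32400266, plus strand), a mediator of strand exchange, measured 0.736, 1.06, 1.19 and 0.338 scaled FPKM in untreated libraries and 0.623, 0.347, 0.773 and 0.377 in dexamethasone libraries. It was the least abundant member on this length-corrected scale, the groups overlapped, and the difference did not pass (log2 fold change -0.24 with SE 0.162, limma adjusted p = 0.292). Without untreated replicate 5 BRCA2 had a log2 fold change of -0.39 (limma adjusted p = 0.0441), and without both libraries numbered 5 of -0.35 (limma adjusted p = 0.0702).

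PALB2 (ENSG00000083093, chromosome 16, 23603160 to 23641310, minus strand), the bridge between BRCA1 and BRCA2, had untreated values of 5.46, 5.26, 6.04 and 2.49 and dexamethasone values of 6.27, 4.83, 6.62 and 3.38 scaled FPKM. The groups overlapped (log2 fold change 0.13 with SE 0.255, limma adjusted p = 0.731), and the sign of the difference turned without untreated replicate 5, at -0.10, and with the GC trend removed, at -0.0532. RAD51C, RAD51AP1 and RAD54B were not called, with log2 fold changes of -0.29, -0.54 and -0.08. With the GC trend removed all 3 were called lower, at -0.51 (limma adjusted p = 0.0144), -0.94 (limma adjusted p = 0.00108) and -0.43 (limma adjusted p = 0.0109). None of the 3 was called without both libraries numbered 5. RAD51AP1, which stimulates strand invasion, was called lower without untreated replicate 5, at -0.79 (limma adjusted p = 0.0421).

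Among genes that sense and trim broken ends, the directions differed, with EXO1 called lower, RAD50 higher and the other 2 of 4 not called. EXO1 (ENSG00000174371, chromosome 1, 241847967 to 241895148, plus strand), the exonuclease of long-range resection and of mismatch repair, was at 10.9, 13.1, 12 and 7.47 scaled FPKM in untreated and at 4.94, 4.44, 5.0 and 3.22 in dexamethasone libraries. The groups did not overlap, and the mean was 2.47 times lower (log2 fold change -1.12 with SE 0.188, limma adjusted p = 0.00199). RAD50 (ENSG00000113522, chromosome 5, 132556019 to 132646344, plus strand), the coiled-coil subunit of the MRN complex that holds break ends, measured 5.31, 6.35, 6.4 and 2.36 scaled FPKM in untreated libraries and 9.88, 7.43, 10.05 and 8.26 in dexamethasone libraries. All dexamethasone libraries lay above all untreated ones, with a ratio of means of 1.75 (log2 fold change 0.76 with SE 0.249, limma adjusted p = 0.0497). This call sat at the threshold and was lost without untreated replicate 1 or any 1 of the dexamethasone libraries, at log2 fold changes of 0.701 to 0.821 and adjusted p of 0.063 to 0.124. Without both libraries numbered 5 it held at 0.52 (limma adjusted p = 0.0148).

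NBN (ENSG00000104320, chromosome 8, 89933336 to 90003228, minus strand), the MRN subunit that recruits ATM, had untreated values of 6.33, 8.59, 7.62 and 2.51 and dexamethasone values of 12.7, 11.6, 12.2 and 7.75 scaled FPKM. Dexamethasone replicate 5 lay within the untreated range and the other 3 above it, and the difference did not pass (log2 fold change 0.81 with SE 0.303, limma adjusted p = 0.0779). Without both libraries numbered 5 NBN was called higher at 0.63 (limma adjusted p = 0.00323), and with the GC trend removed at 0.44 (limma adjusted p = 0.032). MRE11, the nuclease of the same complex, which was added to this account after its values were seen, was at 2.8 ± 1.22 and 2.79 ± 0.883 scaled FPKM (SD, n = 4 each; log2 fold change 0.03 with SE 0.267, limma adjusted p = 0.954). RBBP8 (ENSG00000101773, chromosome 18, 22798261 to 23026488, plus strand), which starts resection with MRN, was at 5.69, 6.2, 6.78 and 1.89 scaled FPKM in untreated and at 7.29, 5.86, 7.66 and 5.17 in dexamethasone libraries. Its untreated replicate 5 was far below the other libraries, and the groups overlapped (log2 fold change 0.37 with SE 0.297, limma adjusted p = 0.377). With the GC trend removed its value was 0.11 (limma adjusted p = 0.664).

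All 3 members that resolve joined molecules were called lower, which does not hold for all genes of this step. RMI2 (ENSG00000175643, chromosome 16, 11249619 to 11381662, plus strand), a subunit of the BLM dissolvasome, measured 20.4, 17.6, 21.9 and 24.3 scaled FPKM in untreated libraries and 6.76, 8.09, 7.8 and 9.46 in dexamethasone libraries. EME1 (ENSG00000154920, chromosome 17, 50373220 to 50381483, plus strand), the partner of the MUS81 nuclease, had untreated values of 4.96, 5.08, 5.74 and 5.59 and dexamethasone values of 2.25, 2.45, 2.0 and 2.77 scaled FPKM. In both genes every dexamethasone library was below every untreated one, at 2.62 times lower for RMI2 (log2 fold change -1.29 with SE 0.142, limma adjusted p = 0.000166) and 2.26 times lower for EME1 (log2 fold change -0.92 with SE 0.12, limma adjusted p = 0.000417). BLM, the helicase mutated in Bloom syndrome, was at 4.0 ± 1.27 and 1.72 ± 0.294 scaled FPKM (SD, n = 4 each; log2 fold change -0.84 with SE 0.198, limma adjusted p = 0.0117). Genes of this step outside the member list were mixed, and were added here after their values were seen. MUS81 (log2 fold change -0.34, limma adjusted p = 0.206) and RMI1 (0.31, limma adjusted p = 0.428) were not called. GEN1, SLX1A and EME2 were not called either, while SLX4 and TOP3A were called lower.

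**Figure D2:**
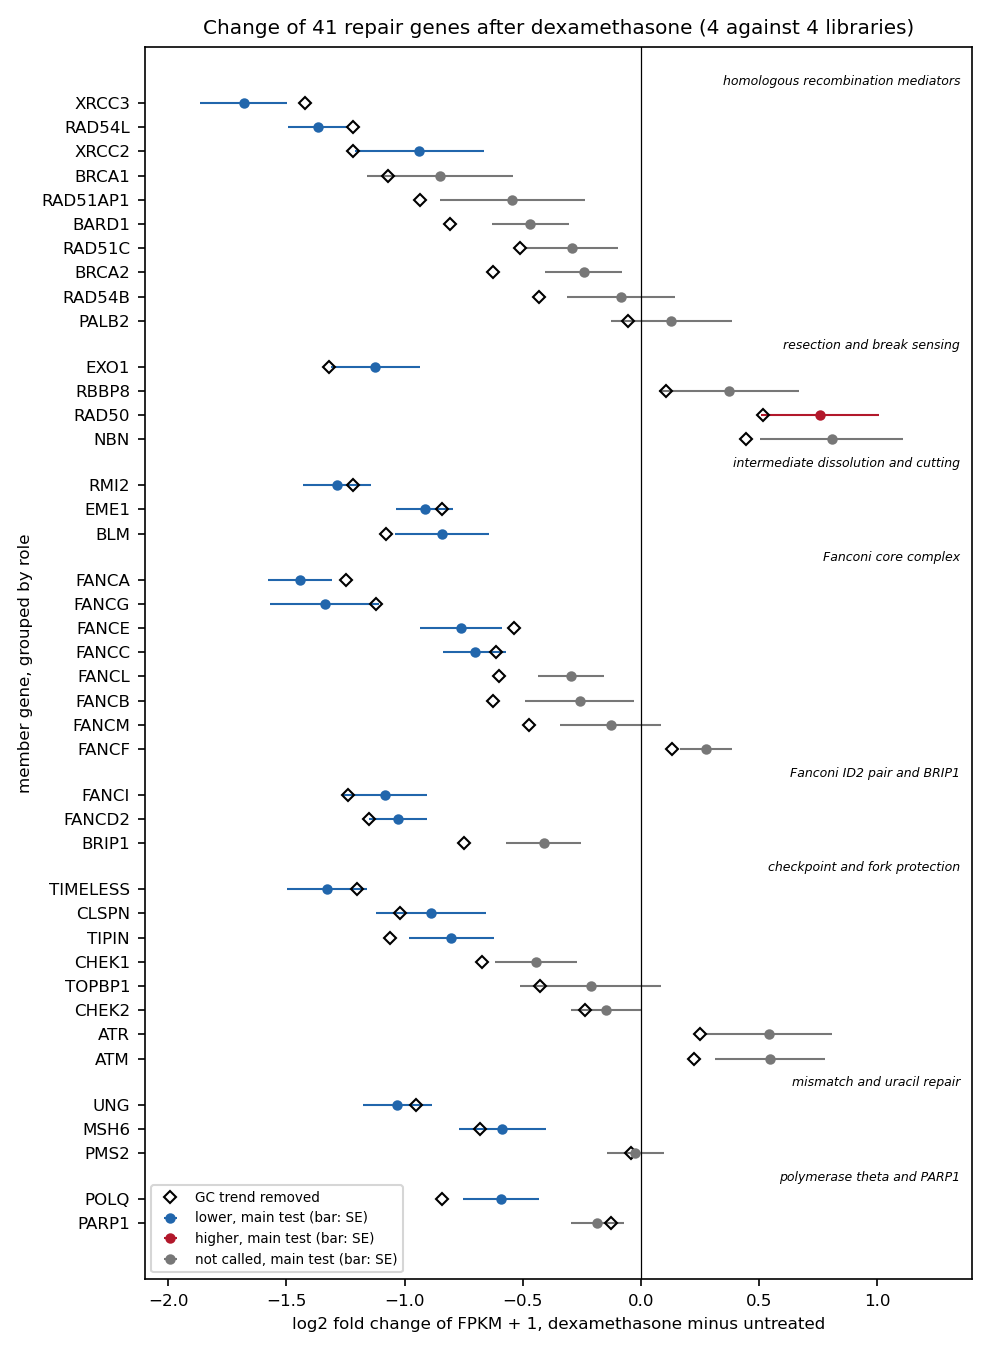
Circles give the log2 fold change of each member (vertical axis, grouped by role) with bars of 1 SE from 4 against 4 libraries, coloured by the call, and open diamonds the same value after the GC trend of each library was removed. XRCC3, FANCA and RAD54L lie farthest to the left, and RAD50 is the only circle called higher.

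Of 8 members of the Fanconi core complex 4 were called lower and 0 higher by limma (4 and 1 at an unadjusted p under 0.05), with a median log2 fold change of -0.50. FANCA, FANCG, FANCE and FANCC were called lower, while FANCB, FANCL, FANCM and FANCF were not called. FANCA (ENSG00000187741, chromosome 16, 89737549 to 89816657, minus strand), a scaffold of the complex, was at 22.1, 17.8, 18.7 and 25.1 scaled FPKM in untreated and at 6.3, 7.18, 7.14 and 7.45 in dexamethasone libraries. Its mean was 2.98 times lower with no overlap (log2 fold change -1.44 with SE 0.136, limma adjusted p = 5.79e-05). FANCG (ENSG00000221829, chromosome 9, 35073835 to 35080016, minus strand), which binds FANCA directly, measured 24.4, 23.4, 23.1 and 43.4 scaled FPKM in untreated libraries and 7.9, 10.3, 9.83 and 13.9 in dexamethasone libraries. Untreated replicate 5 was again the highest, and the groups did not overlap (log2 fold change -1.34 with SE 0.231, limma adjusted p = 0.00238). FANCE, which binds FANCD2, had a log2 fold change of -0.76 (limma adjusted p = 0.00988), and FANCC, its neighbour in the complex, of -0.70 (limma adjusted p = 0.00386).

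FANCF (ENSG00000183161, chromosome 11, 22622890 to 22625841, minus strand), the adaptor that joins the FANCC and FANCE pair to the core, had untreated values of 5.69, 5.87, 5.32 and 5.82 and dexamethasone values of 7.31, 6.84, 7.62 and 6.59 scaled FPKM. All 4 dexamethasone libraries lay above the untreated ones, but the difference did not pass over all genes (log2 fold change 0.28 with SE 0.109, limma adjusted p = 0.09). Without both libraries numbered 5 FANCF was called higher at 0.31 (limma adjusted p = 0.0198), and with the GC trend removed its value was 0.13 (limma adjusted p = 0.361). FANCL, the ubiquitin ligase of the complex, FANCB, its X-linked partner, and FANCM, the translocase that anchors it, had log2 fold changes of -0.30, -0.26 and -0.13. These 3 have a low GC content (39.3%, 36.8% and 37.7%), and with the GC trend removed FANCL and FANCB were called lower, at -0.60 (limma adjusted p = 0.0122) and -0.63 (limma adjusted p = 0.000526), while FANCM was at -0.47 (limma adjusted p = 0.0604). Neither FANCL nor FANCB was called without both libraries numbered 5.

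The substrates of the core complex fell together. FANCD2 (ENSG00000144554, chromosome 3, 10026414 to 10101930, plus strand) was at 12.9, 13.7, 13.5 and 11.4 scaled FPKM in untreated and at 5.18, 5.35, 6.59 and 6.2 in dexamethasone libraries. FANCI (ENSG00000140525, chromosome 15, 89243949 to 89317261, plus strand), its partner in the clamp on DNA, measured 38.2, 52.1, 48.3 and 31.9 scaled FPKM in untreated libraries and 20.3, 15.6, 21.8 and 19.9 in dexamethasone libraries. Neither gene overlapped between groups, with log2 fold changes of -1.03 (SE 0.123, limma adjusted p = 0.00026) and -1.08 (SE 0.179, limma adjusted p = 0.00185). BRIP1, a helicase that binds BRCA1, was at 3.03 ± 0.76 and 2.0 ± 0.305 scaled FPKM (SD, n = 4 each) and was not called (log2 fold change -0.41 with SE 0.159, limma adjusted p = 0.0852), though it was without untreated replicate 5, at -0.55 (limma adjusted p = 0.00745), and with the GC trend removed, at -0.75 (limma adjusted p = 0.000185).

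Of 8 checkpoint and fork protection genes 3 were called lower and 0 higher by limma (4 and 1 at an unadjusted p under 0.05), and the 3 were fork factors and their adaptor rather than kinases. TIMELESS (ENSG00000111602, chromosome 12, 56416373 to 56449403, minus strand), which travels with the fork, had untreated values of 28.9, 28.2, 27.8 and 40.7 and dexamethasone values of 10.9, 10.1, 11.4 and 15 scaled FPKM. TIPIN (ENSG00000075131, chromosome 15, 66336206 to 66386746, minus strand), its binding partner, was at 11, 12, 11.9 and 7.63 scaled FPKM in untreated and at 6.77, 5.8, 5.83 and 4.21 in dexamethasone libraries. Both groups were apart in both genes (log2 fold change -1.33 with SE 0.168, limma adjusted p = 0.000384 for TIMELESS; log2 fold change -0.80 with SE 0.178, limma adjusted p = 0.00896 for TIPIN). CLSPN, the adaptor through which ATR activates CHEK1, was at 6.03 ± 2.17 and 2.63 ± 0.144 scaled FPKM (SD, n = 4 each) and was called lower (log2 fold change -0.89 with SE 0.232, limma adjusted p = 0.0195). Its call was lost without untreated replicate 1 or 4 or dexamethasone replicate 3, at log2 fold changes of -0.895 to -0.771 and adjusted p of 0.0509 to 0.0522.

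None of the 4 kinases was called by limma, while at an unadjusted p under 0.05 CHEK1 was lower and ATM higher. ATM (ENSG00000149311, chromosome 11, 108222484 to 108369102, plus strand), the kinase of break signalling, measured 3.51, 4.43, 3.78 and 3.5 scaled FPKM in untreated libraries and 9.33, 5.13, 7.21 and 3.6 in dexamethasone libraries. Dexamethasone libraries spread from the untreated level upwards, and replicate 5 lay within the untreated range (log2 fold change 0.55 with SE 0.231, limma adjusted p = 0.111). Without dexamethasone replicate 5 ATM was called higher at 0.75 (limma adjusted p = 0.018). ATR (ENSG00000175054, chromosome 3, 142449235 to 142578826, minus strand), the kinase of stalled forks, had untreated values of 3.49, 5.05, 4.55 and 1.72 and dexamethasone values of 6.86, 5.12, 6.94 and 3.8 scaled FPKM. The groups overlapped through replicate 5 of the dexamethasone group (log2 fold change 0.54 with SE 0.267, limma adjusted p = 0.164), and without both libraries numbered 5 ATR was called higher at 0.44 (limma adjusted p = 0.046). With the GC trend removed ATM and ATR had smaller values, 0.23 (limma adjusted p = 0.353) and 0.25 (limma adjusted p = 0.156).

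CHEK1 was lower in all dexamethasone libraries without passing (log2 fold change -0.44 with SE 0.173, limma adjusted p = 0.0863), and with the GC trend removed it was called lower at -0.67 (limma adjusted p = 0.00274). CHEK1 was not called without both libraries numbered 5. CHEK2 and TOPBP1, the activator of ATR, had log2 fold changes of -0.15 and -0.21, or -0.23 (limma adjusted p = 0.183) and -0.43 (limma adjusted p = 0.119) with the GC trend removed.

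**Figure D3:**
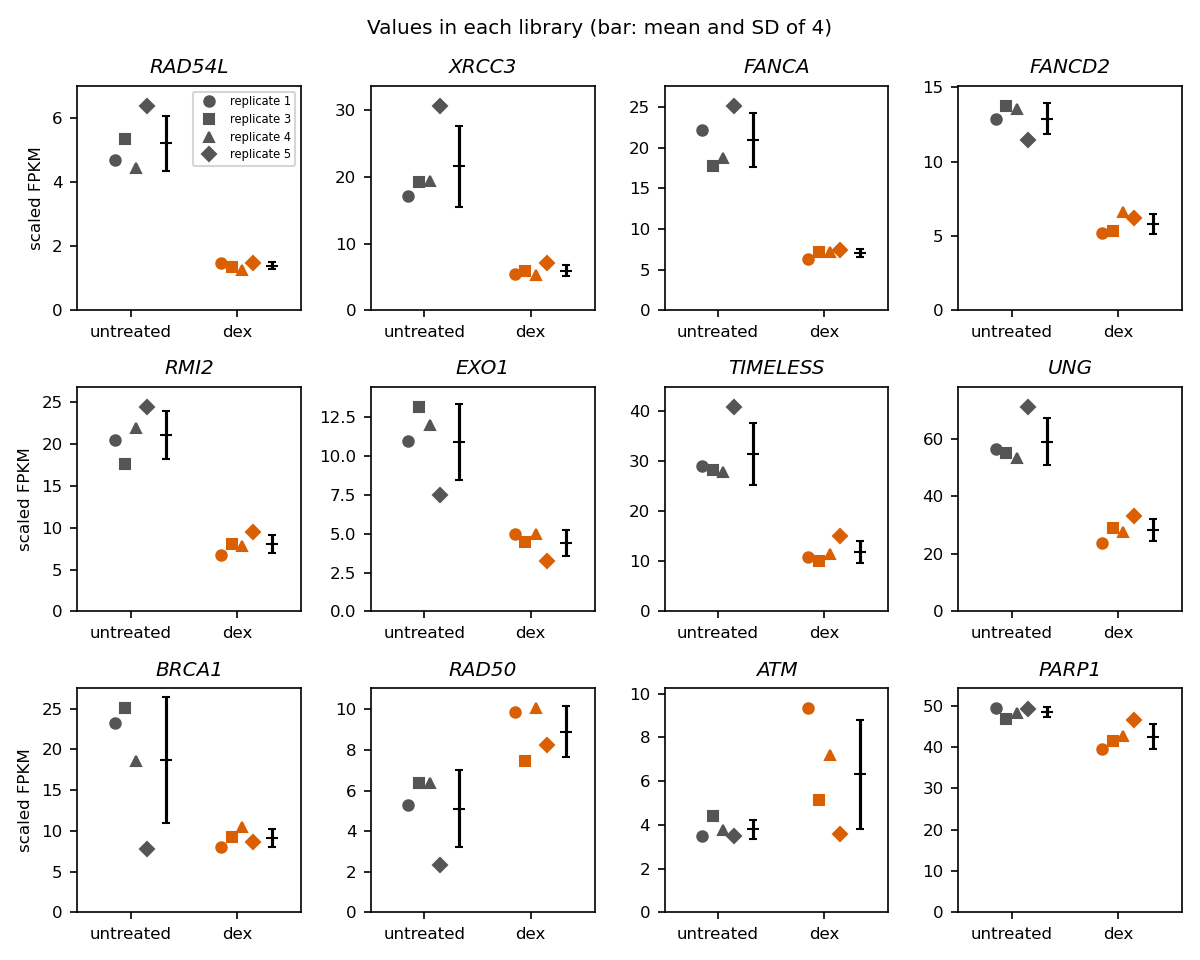
Points are scaled FPKM (vertical axes from 0) of 12 members in each untreated (grey) and dexamethasone (orange) library, with a symbol for each replicate number, and bars give the mean and SD of 4. The 8 genes from RAD54L to UNG have no overlap between groups, while in BRCA1 untreated replicate 5 lies below all dexamethasone libraries.

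Mismatch and uracil repair held both a strong fall and the flattest member. UNG (ENSG00000076248, chromosome 12, 109097574 to 109110992, plus strand), the glycosylase that removes uracil from DNA, was at 56.6, 55.2, 53.5 and 70.9 scaled FPKM in untreated and at 23.8, 29, 27.6 and 33.2 in dexamethasone libraries. The groups were far apart, with a mean 2.08 times lower (log2 fold change -1.03 with SE 0.147, limma adjusted p = 0.000721). MSH6 (ENSG00000116062, chromosome 2, 47695530 to 47810101, plus strand), which recognises mismatches, measured 26.7, 36.1, 26.9 and 22 scaled FPKM in untreated libraries and 13.9, 17.3, 21.5 and 20.2 in dexamethasone libraries. The groups did not overlap, though the lowest untreated and highest dexamethasone libraries were close (log2 fold change -0.59 with SE 0.183, limma adjusted p = 0.0404), and the call was lost without untreated replicate 1, 3 or 4 or dexamethasone replicate 1 or 3, at log2 fold changes of -0.601 to -0.46 and adjusted p of 0.0732 to 0.114. PMS2, the endonuclease of mismatch repair, was at 9.41 ± 0.398 and 9.27 ± 1.12 scaled FPKM (SD, n = 4 each; log2 fold change -0.02 with SE 0.12, limma adjusted p = 0.895).

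POLQ (ENSG00000051341, chromosome 3, 121431427 to 121546641, minus strand), the polymerase that joins ends by microhomology, had untreated values of 2.7, 3.09, 3.24 and 1.61 and dexamethasone values of 1.28, 1.2, 1.54 and 1.53 scaled FPKM. The groups just missed each other and it was called lower (log2 fold change -0.59 with SE 0.161, limma adjusted p = 0.0226), but not without untreated replicate 1, 3 or 4 or dexamethasone replicate 1 or 3, at log2 fold changes of -0.579 to -0.513 and adjusted p of 0.0579 to 0.0706. PARP1 (ENSG00000143799, chromosome 1, 226360691 to 226408079, minus strand), the abundant sensor of nicked DNA, was at 49.3, 46.9, 48.3 and 49.3 scaled FPKM in untreated and at 39.4, 41.4, 42.7 and 46.7 in dexamethasone libraries. The dexamethasone libraries lay just below the untreated ones, a difference that did not pass (log2 fold change -0.19 with SE 0.112, limma adjusted p = 0.244). Without both libraries numbered 5 it was called lower at -0.23 (limma adjusted p = 0.0311).

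Some values are uncertain because the authors' handling of shared reads is not stated. PMS2, CHEK2, FANCD2 and BRCA1 have partial pseudogene copies. In GENCODE v44, RAD54B, RAD50, FANCG, CHEK1 and UNG overlap a protein-coding gene on the same strand. Others, among them XRCC3, RAD54L, BRCA2, NBN, RMI2, EME1, FANCA, FANCF, ATM and MSH6, share part of their span with a gene of the other strand, and whether strand was used in the counting is not given.

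Partner genes were compared as ratios within a library, which scaling between libraries does not touch, and described with no test. The GC trend of a library stays in a ratio whose partners differ in GC content, such as RAD51C (41.8%) and XRCC3 (62.8%). TOPBP1 to ATR was 1.6, 1.81, 1.96 and 1.69 in untreated and 0.914, 0.876, 0.898 and 1.04 in dexamethasone libraries. The groups did not overlap, and dexamethasone replicate 5 was the highest of its group. CHEK2 to ATM went from 1.11 ± 0.137 to 0.645 ± 0.219 (SD, n = 4 each), also without overlap. PALB2 to BRCA2 went from 6.21 ± 1.36 to 10.4 ± 2.44 and RAD51C to XRCC3 from 0.586 ± 0.182 to 1.71 ± 0.606, both without overlap. For RAD51C to XRCC3, replicate 5 was the lowest of each group, at 0.337 in untreated and 0.848 in dexamethasone libraries. The other 6 ratios overlapped between groups. How often ratios of other gene pairs overlap was not computed. FANCI to FANCD2 was 3.28 ± 0.481 in untreated and 3.34 ± 0.424 in dexamethasone libraries (SD, n = 4 each), and NBN to RAD50 was 1.20 ± 0.118 and 1.25 ± 0.258. BARD1 to BRCA1 was 0.247 ± 0.0851 and 0.293 ± 0.00841.

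**Figure D4:**
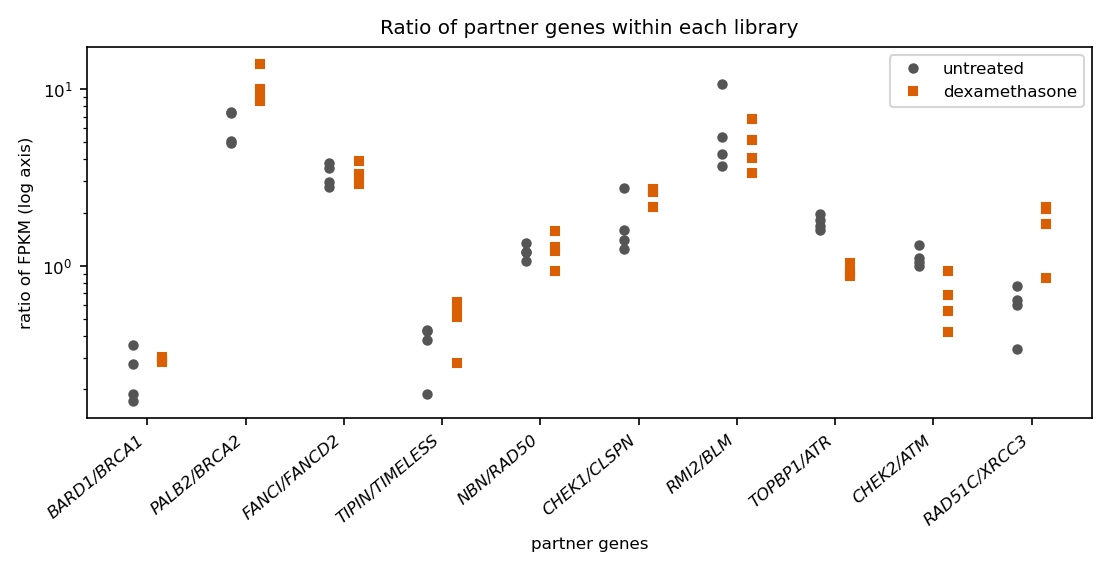
Points are the ratio of 2 partner genes within a library (log axis) for 10 pairs, untreated in grey and dexamethasone in orange. TOPBP1/ATR and CHEK2/ATM lie lower, and PALB2/BRCA2 and RAD51C/XRCC3 higher, in all 4 dexamethasone libraries.

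GC content moved with the size of the change. Across the 41 members the log2 fold change had a Spearman rho of -0.584 with the GC content of the canonical transcript, beside -0.455 across 12130 genes tested, and -0.366 among the members with the GC trend removed. The members share libraries, so these are descriptions. Of the 20 members below the median GC content 4 were called lower and 1 higher, and of the other 21, 15 were called lower. With the GC trend removed these counts of lower calls were 14 and 15. The part of GC content in the main result was not tested beyond these values.

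**Figure D5:**
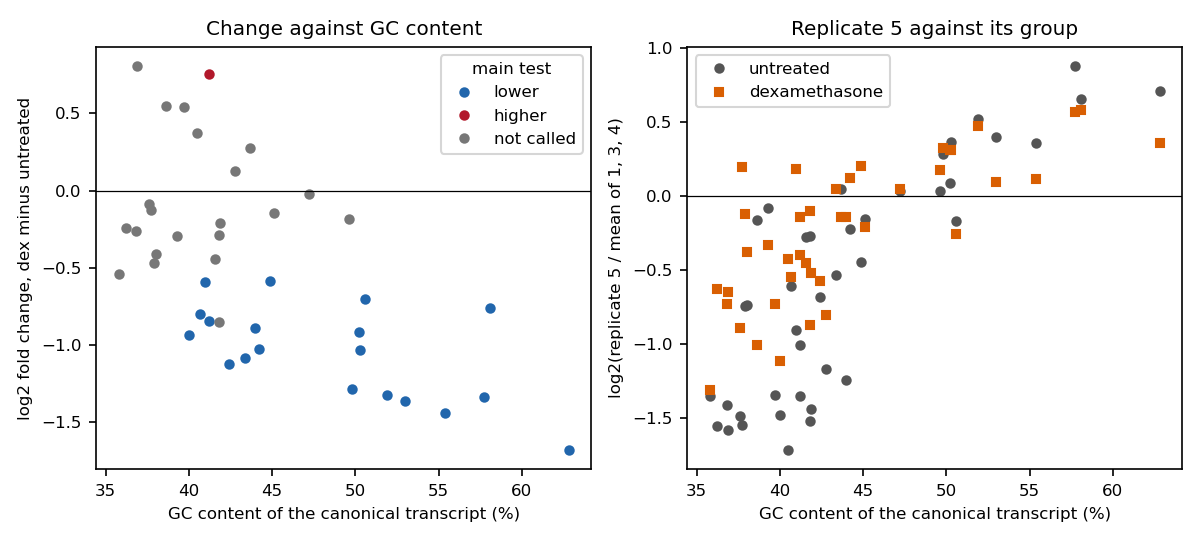
Left, the log2 fold change of each member against the GC content of its canonical transcript in percent, coloured by the call. Right, the log2 ratio of replicate 5 to the mean of replicates 1, 3 and 4 of its own group, which is lowest in members of low GC content.

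Promoters were searched for sequence motifs because many members moved together. RefSeq promoters on GRCh38.p14, which run from 250 bases before to 50 bases after a start site, were found for 37 of the 41 members, with 52 start sites. E2F proteins, which drive genes of DNA synthesis, are known to bind sites such as TTTCCCGC, TTTGGCGC and TTTGGCGG. On either strand these letters occurred in promoters of 6 of the 37 members (16.2%) and of 3.5% of all gene symbols in the table. TTTCCCGC was found in CLSPN, FANCC, FANCD2, MSH6 and XRCC2, and TTTGGCGC in TIPIN, where matches on both strands overlap. All 6 were called lower by limma, as were 11 of the other 31. The share called lower among all tested genes with these letters was not computed, so the 6 have no background to be read against. The calls of XRCC2, CLSPN and MSH6 among the 6, and of POLQ among the 11, were lost when certain single libraries were left out. CCAAT, the letters bound by NF-Y, occurred in promoters of 19 of the 37 members (51.4%, against 39.7% of symbols). TTTGAA, the core of the cell-cycle homology region, occurred in 5 (13.5%, against 18.2%). The shares of symbols were not limited to the genes tested here, while all members passed the filter. A match is a description and not a bound site. The 6 promoters with an E2F-type match are printed 5′ to 3′ on the strand of the gene, with the match in capitals (GCGGGAAA is TTTCCCGC on the other strand). Those of CLSPN, FANCD2 and MSH6 have a match that begins within 5 bases of the start site.
CLSPN (chr1:35769929-35770228, minus strand): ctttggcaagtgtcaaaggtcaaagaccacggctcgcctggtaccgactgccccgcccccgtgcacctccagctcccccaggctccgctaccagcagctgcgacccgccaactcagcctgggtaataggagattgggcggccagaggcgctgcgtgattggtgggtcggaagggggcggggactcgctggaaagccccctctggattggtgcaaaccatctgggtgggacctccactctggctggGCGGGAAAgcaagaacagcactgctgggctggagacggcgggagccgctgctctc
FANCC (chr9:95317660-95317959, minus strand): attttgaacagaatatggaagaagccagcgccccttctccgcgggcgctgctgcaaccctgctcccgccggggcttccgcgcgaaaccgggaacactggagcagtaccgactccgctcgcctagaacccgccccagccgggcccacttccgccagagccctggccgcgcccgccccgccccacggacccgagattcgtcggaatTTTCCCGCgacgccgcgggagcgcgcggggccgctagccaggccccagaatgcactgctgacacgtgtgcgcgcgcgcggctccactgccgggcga
FANCD2 (chr3:10026187-10026486, plus strand): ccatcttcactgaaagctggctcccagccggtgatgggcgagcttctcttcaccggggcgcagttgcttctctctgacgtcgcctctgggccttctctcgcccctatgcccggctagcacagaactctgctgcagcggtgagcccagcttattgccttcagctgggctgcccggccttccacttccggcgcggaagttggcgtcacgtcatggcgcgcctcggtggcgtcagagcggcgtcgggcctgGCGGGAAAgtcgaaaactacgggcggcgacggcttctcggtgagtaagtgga
MSH6 (chr2:47782895-47783194, plus strand): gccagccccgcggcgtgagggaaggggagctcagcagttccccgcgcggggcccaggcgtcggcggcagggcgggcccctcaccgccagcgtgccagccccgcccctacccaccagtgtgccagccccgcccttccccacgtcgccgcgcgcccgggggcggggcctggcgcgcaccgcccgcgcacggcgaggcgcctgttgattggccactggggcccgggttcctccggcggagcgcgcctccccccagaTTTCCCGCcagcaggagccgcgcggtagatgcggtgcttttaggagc
TIPIN (chr15:66356636-66356935, minus strand): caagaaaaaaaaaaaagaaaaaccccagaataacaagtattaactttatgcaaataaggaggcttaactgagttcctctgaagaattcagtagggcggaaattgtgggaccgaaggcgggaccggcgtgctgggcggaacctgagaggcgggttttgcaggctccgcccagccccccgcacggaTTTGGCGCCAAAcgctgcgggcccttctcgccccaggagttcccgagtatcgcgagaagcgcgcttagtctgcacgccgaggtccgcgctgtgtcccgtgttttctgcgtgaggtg
XRCC2 (chr7:152676092-152676391, minus strand): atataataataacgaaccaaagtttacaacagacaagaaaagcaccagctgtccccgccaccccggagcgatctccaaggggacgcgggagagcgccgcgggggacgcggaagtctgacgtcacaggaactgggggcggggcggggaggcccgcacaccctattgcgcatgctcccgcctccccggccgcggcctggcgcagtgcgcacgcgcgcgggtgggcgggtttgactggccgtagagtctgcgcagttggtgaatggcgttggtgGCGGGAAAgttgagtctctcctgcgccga

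Repair genes outside the 41 were taken from a list of 130 genes in 8 groups. Of these 32 were called lower (24.6%) and 6 higher (4.62%), with a median log2 fold change of -0.17. The share of lower calls thus lay between that of all genes, 14.3%, and that of the members. Both lists were chosen with earlier results of these data known, so this order is only a description. With the GC trend removed, 46 of the 130 were called lower and 8 higher, beside 18.8% and 18.4% of all genes. Other recombination genes had 7 of 31 lower and 1 higher. SLX4, a nuclease scaffold, had a log2 fold change of -0.62 (limma adjusted p = 0.00466). SEM1, a small partner of BRCA2, was called higher at 0.50 (limma adjusted p = 0.037).

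Other Fanconi and crosslink genes had 5 of 14 lower and 1 higher. RFWD3, a ubiquitin ligase, and FAAP24, the partner of FANCM, had the smallest p-values among the lower genes, at -1.03 and -0.87 (limma adjusted p = 9.35e-05 and 0.000509), and WDR48, the activator of the deubiquitinase USP1, was higher at 0.53 (limma adjusted p = 0.0367). Of 8 other mismatch repair genes 3 were lower, with the smallest p-values for LIG1, the ligase that seals the patch, at -1.39 and PCNA, the sliding clamp, at -1.05 (limma adjusted p = 0.000698 and 0.000961). Of 15 other checkpoint and fork genes 5 were lower, with the smallest p-values for the phosphatases CDC25A, which fell by a factor of 3.92 (log2 fold change -1.59 with SE 0.121, limma adjusted p = 1.56e-05), and CDC25C, at -1.07 (limma adjusted p = 0.000347).

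In break signalling, end joining and nucleotide excision repair the shares called lower in the main test, 13.3%, 15.4% and 12.5%, were near the 14.3% of all genes. Shares by group were not computed with the GC trend removed. Break signalling had 2 of 15 lower, H2AX (-1.66), the histone marked at breaks, and MDC1 (-0.77), which reads that mark, and ABRAXAS1 was higher at 0.67 (limma adjusted p = 0.000736, 0.0111 and 0.0185). End joining had 2 of 13 lower, among them PAXX at -0.71 (limma adjusted p = 0.0335). Base excision and single-strand break repair had 6 of 18 lower, with the smallest p-values for the glycosylase NEIL3 (-1.36, limma adjusted p = 0.000166) and for PARP2 (-0.50, limma adjusted p = 0.0122), and NEIL1 was higher (0.50, limma adjusted p = 0.0442). Nucleotide excision repair had 2 of 16 lower and 2 higher (12.5% each, near the 14.3% and 12.4% of all genes). DDB2, the damage sensor, was at -1.02 and the helicase ERCC3 at -0.33 (limma adjusted p = 0.000388 and 0.0467), and CETN2 and ERCC6 were higher at 0.55 and 0.56 (limma adjusted p = 0.00449 and 0.0375). The differences between these groups of genes were not tested.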

How the data were processed

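RNA depleted of ribosomal RNA was sequenced as read pairs in 8 libraries. The authors deposited 1 table per library. The labels call the deposited values counts, but they are not whole numbers, and from their size and spacing the deposited values were read as FPKM, as no header names a unit. The submitters' processing notes name FastQC 0.11.9, cutadapt 3.4, STAR 2.7.9a, featureCounts of Subread 2.0.3 and DESeq2 1.32.0 on GRCh38; annotation release and use of strand are not given in the sources used here.

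Scaling between libraries used the TMM method (trimmed mean of M values). Genes with at least 0.5 FPKM in 4 libraries (12161 of 19158) were tested on log2(FPKM + 1) with limma 3.58.1 in R 4.3.3 (trended, robust eBayes, two-sided, Benjamini-Hochberg over all genes). Only 39.4% to 46.0% of low values came within 0.1 of whole fragments, so reads could not be recovered, the depth is only an estimate, and no count test was run. In data simulated with 11942 genes, 200 genes were changed. Of these, 46% were called at a 2-fold change, 87% at 4-fold and 0% at 1.5-fold. In the real data 3251 of 12161 genes were called, which makes the adjusted threshold less strict than in the simulation. The simulated shares therefore do not give the recovery in this comparison.

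Values by library are given for the 2 members of each role with the smallest p, for BRCA1, BRCA2, FANCD2, ATM, ATR and PARP1, and for members that moved against the median. Of the other repair genes the 2 lower ones with the smallest p in each role and all higher ones are named, except for results that are not reported here. H2AX was matched by its identifier. The members and lists were chosen with earlier results of these data known. Gene coordinates are those of the deposited tables, and GC content and overlaps come from GENCODE v44. Alternatives covered scaling, pseudocount, filter, variance model, GC trend, replicate block and libraries left out. The labels give all libraries the same batch.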

Additional observations from a re-analysis of the deposited data

Results flagged for a closer look

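In 4 of 82 sets of 4 values (41 members in 2 groups) 1 library lay far from the other 3 by Dixon's criterion, where chance gives about 4. All 4 cases were libraries numbered 5. Untreated replicate 5 was high for XRCC3 (30.5 scaled FPKM, others 17.2 to 19.4), FANCG (43.4, others 23.1 to 24.4) and TIMELESS (40.7, others 27.8 to 28.9). Dexamethasone replicate 5 was low for CHEK1 (5.27, others 7.01 to 7.33). Without both libraries numbered 5, XRCC3, FANCG and TIMELESS were still called lower.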

How the results depend on the processing

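The 19 lower calls were the same in number with median-ratio scaling, a pseudocount of 0.1, a filter of 1 FPKM and eBayes without trend and robust settings. In these settings 13.8% to 14.5% of all genes were called lower. BRCA2 did not pass the filter of 1 FPKM. Without scaling XRCC2, CLSPN, MSH6 and POLQ were lost, and without a filter XRCC2 and MSH6, where 16.6% and 11.9% of all genes were called lower. With the GC trend removed 29 members were lower and 2 higher, beside 18.8% and 18.4% of all genes. Without both libraries numbered 5 there were 23 and 5, beside 22.9% and 22.2%. Members called higher by limma numbered 0 without scaling, with a pseudocount of 0.1, without a filter and with a filter of 1 FPKM. In these settings 9.76% to 12.3% of all genes were called higher. In the reported test 4 members were higher at an unadjusted p under 0.05. Leaving out 1 library gave 15 to 24 members lower, 0 to 2 higher and a member median of -0.638 to -0.373. Other repair genes numbered 21 to 40 lower and 1 to 9 higher. In these fits 10.3% to 16.4% of all genes were called lower and 8.49% to 15% higher. Other repair genes called higher numbered 3 without scaling, where 10.4% of all genes were, and 15 without both libraries numbered 5, where 22.2% were.

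The replicate numbers were not used as pairs in the main test. Deviations of same-numbered libraries correlated at 0.292, 0.066, 0.315 and 0.713, all positive. Untreated replicates 3 and 4 correlated best with dexamethasone replicate 1 (0.434 and 0.424). Whether the numbers mark pairs was therefore not settled. With a replicate block 25 members were lower and 3 higher, and 45 other repair genes lower and 17 higher, where 23.2% and 24.1% of all genes were called lower and higher. With the block and the GC trend removed these were 29 and 2, and 50 and 11, where 21.8% and 21.9% of all genes were called.

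PALB2 turned to -0.0532 with the GC trend removed, with or without the block, and to -0.101 without untreated replicate 5 (range with 1 library left out -0.101 to 0.291). RAD54B turned to 0.0157, 0.0652 and 0.033 without untreated replicate 3, untreated replicate 4 or dexamethasone replicate 5 (range -0.277 to 0.0652), and PMS2 to 0.0333 without dexamethasone replicate 4 (range -0.0993 to 0.0333). The cause of these changes was not tested. RAD54B was called lower with the GC trend removed, at -0.431 (limma adjusted p = 0.0109). Depth was only estimated, so its limit on single members is not given.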
